A study of Mus musculus with 8 samples.

Results

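Pure cancer organoid cells were compared with pure WT organoid cells, that is, the cells of each genotype cultured without the other. The libraries were chosen by their labels, 2 pure cancer (wells A03 and A07) and 2 pure WT (wells A01 and A05), which are 4 of the 8 libraries of the study; the other 4 hold cells sorted from mixed cultures. WT cells came from mouse small intestinal organoids of the mTmG genotype on the C57BL/6 strain, so they carry membrane-bound tdTomato. Cancer cells came from Dendra2-labeled small intestinal organoids labelled C57BL/6 (F6), with alleles that include Villin-CreERT2, Apc fl/fl and Trp53 fl/R172H; the label spells the last gene Tr53. In these mice an intestinal promoter drives an inducible Cre recombinase, so recombination is directed to the epithelium. Both genotypes were cultured as organoids, three-dimensional epithelial cultures in gel, in the same type of medium, which supplies EGF, Noggin and R-spondin1. Live cells were sorted by their fluorescent label on day 3 and sequenced in bulk. The comparison therefore contrasts the joint set of alleles, the label and the culture history with WT, and their shares cannot be told apart.

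The small intestinal epithelium renews from crypt stem cells, which give rise to absorptive enterocytes and to secretory Paneth, goblet, enteroendocrine and tuft cells. Wnt signals keep the stem cells, and the transcription factors of the CDX, HNF4 and GATA families keep the tissue intestinal. Apc restrains Wnt signaling by targeting beta-catenin for degradation, and p53 arrests or removes damaged cells. Culture in R-spondin1 feeds the Wnt pathway in WT cells too.

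Reads per gene were counted from 3' end libraries (CEL-Seq), and levels are given as CPM, counts scaled to a common library size with TMM factors. The pure WT libraries held 1103139 (A01) and 1905693 (A05) reads and the pure cancer libraries 210030 (A03) and 333831 (A07). A count of 0 therefore allows up to 1.04 CPM over the pooled pure WT libraries and 5.72 CPM over the pooled pure cancer libraries, counting error only. Over tested genes the median absolute log2 ratio between the libraries of a group was 0.41 in WT and 0.82 in cancer. Mitochondrial transcripts took 4.65% and 6.18% of WT reads and 6.82% and 2.86% of cancer reads. All 10 epithelial identity genes were tested, and their summed level was 9833 and 8937 CPM in A01 and A05 against 5395 and 7094 CPM in A03 and A07. Of markers of other cells, 3 of 15 fibroblast, 2 of 10 endothelial, 7 of 19 immune and 0 of 8 red blood cell genes were in the table, with summed levels of 0 to 10.98 CPM per library except 71.8 CPM for immune genes in A07. There Cd68, a lysosomal protein of macrophages, had 23 reads in A07, 0 in A03 and 1 each in A01 and A05, while Col1a1, Cd8a, Laptm5, Fcer1g and Coro1a were at 0 in all 4 libraries. Its call as higher (adjusted p = 0.0154) was lost without A01 (adjusted p = 0.168) or A05 (adjusted p = 0.245), and without A07 its sign turned.

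Trp53 and Apc, whose alleles mark the cancer organoids, were read first. Trp53 (chr11:69580348-69591873, GRCm38.p6), which encodes p53, measured 178 and 324 CPM in A01 and A05 and 5.25 and 71.8 CPM in A03 and A07, or 195, 576, 1 and 24 reads. The groups did not overlap, which held for 52.6% of all tested genes. Trp53 was lower in cancer (log2 fold change -2.56 ± 0.77, adjusted p = 0.0323, SE throughout). That call was lost without A05 (adjusted p = 0.253) or A03 (adjusted p = 0.107). Values that follow a gene's result as without a named library are likewise its adjusted p from the edgeR fit that leaves that library out. The Trp53 call was also lost after thinning all libraries to the depth of A03 (edgeR adjusted p = 0.103). At a minimum count of 50 in the filter it was lost too (edgeR adjusted p = 0.053). Apc had 1 and 4 reads in WT and 2 and 0 in cancer and was too low to be tested. The reads lie at the 3' ends of these transcripts, away from the altered codons and exons, so the counts check none of the alleles.

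Of 13420 genes, 5264 passed the filter on low counts and 524 were called at an adjusted p under 0.05, which is 9.95% of those tested (edgeR quasi-likelihood test, Benjamini-Hochberg over all tested genes; n = 2 libraries a group). The labels do not say whether the libraries of a group came from separate cultures, so p-values measure only the spread between these libraries, which may be technical. Of the called genes, 269 were higher in cancer (5.11% of tested genes) and 255 lower (4.84%), and 1078 genes had an unadjusted p under 0.05. Each count of called list members below is to be read beside these shares. The lists were also drawn up with earlier results of these data known. A gene at 0 in both cancer libraries passed the filter only through other libraries, so shares of lower calls among tested members rest in part on the filter. The median log2 fold change was 4.03 among higher and -6.53 among lower genes, against -0.05 over all tested genes. In 110 of the lower genes (43.1%) both cancer libraries had 0 reads, whereas 22 of the higher genes (8.18%) had 0 reads in both WT libraries. The fitted fold change of a gene at 0 is no measured size, so the medians of higher and lower genes cannot be compared as sizes. The cancer libraries were also shallower, with 543861 pooled reads against 3008832 in WT. The part of depth in these counts of genes at 0 was not tested. The libraries of the groups did not overlap for 512 of the 524 called genes, beside 52.6% of all tested genes. The total depended on single libraries and fell without A01, A05 or A07, though not without A03. In none of these runs were all 524 calls kept. The genes tested differed too, with 5394 without A01, 5398 without A05, 6798 without A03 and 6740 without A07, so the totals are not on 1 scale. Of the 524 called genes, 8 turned sign without A07 and 1 without A03. A bulk library does not separate fewer cells of a type from less RNA per cell.

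**Figure D1:**
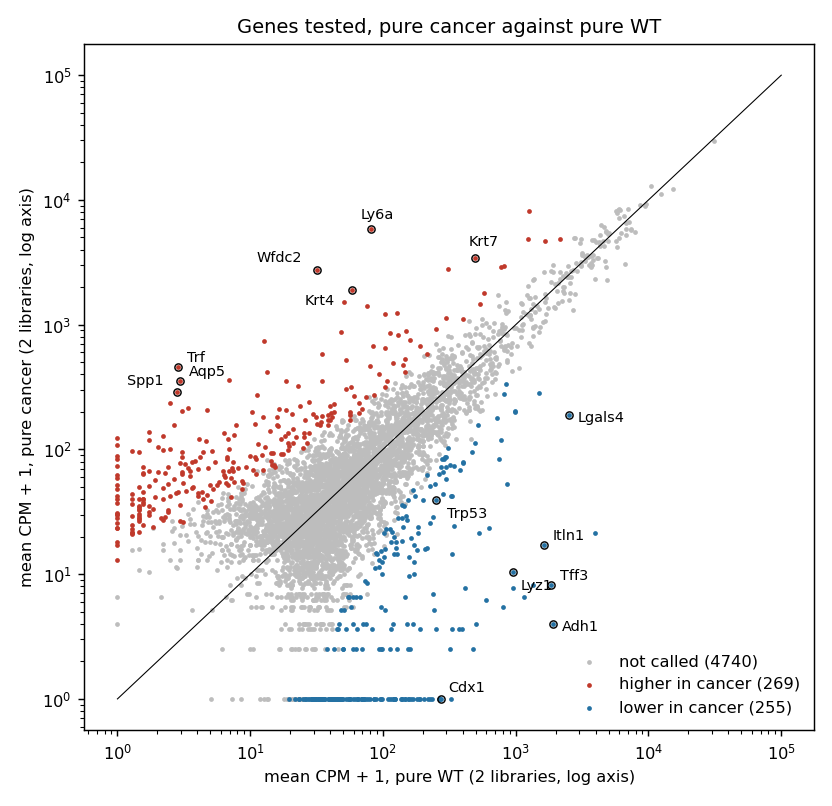
Mean CPM + 1 of each of 5264 tested genes in the 2 pure WT libraries (x axis) and the 2 pure cancer libraries (y axis), both on log axes, with the line of equal levels. Red points are the 269 genes called higher and blue points the 255 called lower in cancer; the row of blue points at the bottom holds genes with 0 reads in both cancer libraries.

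Among called genes with at least 50 reads per library on average, the 10 with the largest rise were Trf, Aqp5, Wfdc2, Ly6a, Stra6, Ifitm1, Lgals1, Krt4, Wdr92 and Ier3. Trf, which encodes the iron carrier transferrin, measured 0.915 and 2.81 CPM in A01 and A05 and 567 and 344 CPM in A03 and A07 (log2 fold change 7.73 ± 0.70, adjusted p = 9.74e-08). Of windows of 50 bases at the 3' ends of its annotated transcripts, 67.8% also occur in transcripts of other gene models, so its reads could be split. Aqp5, a water channel of glands and stomach, rose from 2.75 and 1.12 CPM in WT to 199 and 499.8 CPM in cancer (log2 fold change 7.54 ± 0.79, adjusted p = 7.97e-07). Stra6, the cell surface receptor for retinol-binding protein, rose from 9.15 and 2.81 to 158 and 566 CPM (log2 fold change 6.01 ± 0.72, adjusted p = 3.81e-06). Lgals1, a galectin, rose from 20.1 and 4.5 to 441 and 389 CPM (log2 fold change 5.14 ± 0.67, adjusted p = 1.23e-05). In all of these genes each cancer library was above each WT library, beside 52.6% of all tested genes without overlap in either direction.

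For falls, the same rule ranks by the fitted log2 fold change, which is no measured size where a group is at 0. It named Clca4, Cdx1, Guca2a, Vdr, Reg1, Nlrp6, Cck, Apoa1, Smoc2 and Clps, all with 0 reads in both cancer libraries, and their falls were not ranked against those of genes with cancer reads, such as Tff3. Nlrp6, an inflammasome sensor of enterocytes and goblet cells, measured 238 and 208 CPM in WT (at least 38.4-fold lower, adjusted p = 1.78e-05). Clps, the colipase that helps lipase digest fat, measured 153 and 219 CPM in WT (at least 33.9-fold lower, adjusted p = 5.05e-05). Reg1, a secreted lectin of the crypt, measured 170.2 and 296 CPM in WT (at least 43.4-fold lower, adjusted p = 2.32e-04), a call that DESeq2 on 8 libraries did not make (adjusted p = 0.0658).

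Promoters are shown for 6 called genes that the text describes, Alpi, Fabp1 and Fabp2 of the enterocyte list and Ajuba, Ankrd1 and Emp1 of the YAP and RAS-ERK lists. These genes and the motifs marked in each were picked singly, and all 6 hold a match. They do not stand for their lists, and the shares over all called genes follow the sequences. Each window runs from 250 bases before to 50 after the RefSeq start in GRCm38.p6, 5′ to 3′ on the gene's strand. Capitals mark matches on either strand to GNNATAAA (CDX-type) or CAAAGTCCA (HNF4-type) in the first 3, to GGAATG (TEAD-type) in Ajuba and Ankrd1, and to TGANTCA (AP-1-type) in Emp1. Alpi lies at chr1:87101557-87101856 on the minus strand, Fabp1 at chr6:71199629-71199928 and Fabp2 at chr3:122894822-122895121 on the plus strand. Ajuba lies at chr14:54577612-54577911 and Ankrd1 at chr19:36119795-36120094 on the minus strand, and Emp1 at chr6:135362681-135362980 on the plus strand.
Alpi: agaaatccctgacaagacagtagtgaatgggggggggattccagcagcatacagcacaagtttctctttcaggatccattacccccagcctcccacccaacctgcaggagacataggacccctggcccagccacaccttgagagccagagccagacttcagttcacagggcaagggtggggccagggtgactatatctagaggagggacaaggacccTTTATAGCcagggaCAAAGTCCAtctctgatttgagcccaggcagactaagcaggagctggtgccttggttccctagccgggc
Fabp1: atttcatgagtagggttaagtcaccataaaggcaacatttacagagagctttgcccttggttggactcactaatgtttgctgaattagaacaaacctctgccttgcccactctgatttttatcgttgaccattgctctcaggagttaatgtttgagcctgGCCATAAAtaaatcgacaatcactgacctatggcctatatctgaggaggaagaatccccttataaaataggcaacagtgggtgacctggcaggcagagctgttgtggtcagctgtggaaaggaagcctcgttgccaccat
Fabp2: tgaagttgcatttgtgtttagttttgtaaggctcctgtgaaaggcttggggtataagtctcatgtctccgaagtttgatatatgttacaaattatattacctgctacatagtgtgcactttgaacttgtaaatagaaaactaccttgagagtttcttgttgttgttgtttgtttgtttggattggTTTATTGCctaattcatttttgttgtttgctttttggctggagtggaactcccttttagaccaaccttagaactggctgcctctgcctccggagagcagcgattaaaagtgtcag
Ajuba: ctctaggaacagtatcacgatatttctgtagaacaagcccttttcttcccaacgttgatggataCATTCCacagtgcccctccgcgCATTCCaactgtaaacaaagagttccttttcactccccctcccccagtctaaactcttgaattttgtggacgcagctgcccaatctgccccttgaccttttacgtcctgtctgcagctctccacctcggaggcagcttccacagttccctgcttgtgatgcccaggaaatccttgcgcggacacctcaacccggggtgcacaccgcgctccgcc
Ankrd1: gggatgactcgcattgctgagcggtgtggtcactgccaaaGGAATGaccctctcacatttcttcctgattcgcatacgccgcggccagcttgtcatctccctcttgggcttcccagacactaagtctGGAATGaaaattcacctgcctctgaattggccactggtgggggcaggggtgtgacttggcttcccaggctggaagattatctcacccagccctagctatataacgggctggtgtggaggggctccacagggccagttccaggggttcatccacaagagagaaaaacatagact
Emp1: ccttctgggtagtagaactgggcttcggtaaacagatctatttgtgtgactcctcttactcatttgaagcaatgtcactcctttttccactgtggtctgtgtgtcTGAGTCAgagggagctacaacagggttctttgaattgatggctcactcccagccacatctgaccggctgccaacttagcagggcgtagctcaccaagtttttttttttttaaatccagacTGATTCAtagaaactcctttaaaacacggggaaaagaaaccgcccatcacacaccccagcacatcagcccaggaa

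RefSeq windows matched 4288 of the 5264 tested genes, 205 of the genes called higher and 209 of those called lower. The CDX-type match was in 28 windows of lower genes (13.4%), 16 of higher genes (7.80%), 7.14% of tested genes and 12.6% of all 32851 windows. The AP-1-type match was in 29 windows of higher genes (14.1%), 19 of lower genes (9.09%), 5.60% of tested genes and 7.81% of all windows. The TEAD-type match was in 15.1% of higher, 16.3% of lower, 11.7% of tested and 14.7% of all windows, and the HNF4-type match in 1, 2, 14 and 156 windows, respectively. CTTTGAT, a TCF-type match, was in 3.41% of higher, 2.87% of lower, 2.38% of tested and 3.73% of all windows. These are counts of letters, and no occupancy was measured.

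Enterocyte genes were lower in cancer as a group. Of 46 listed absorptive enterocyte markers, 40 were in the table and 22 tested; 15 were called lower and none higher, beside 4.84% of all tested genes called lower. Of these 15, 10 had 0 reads in both cancer libraries and were tested only through other libraries. The median log2 fold change of the tested members was -7.24, or -3.50 with genes at 0 reads set to their bound, against -0.05 over all tested genes. Their summed level was 4446 and 3309 CPM in A01 and A05 and 142 and 77.8 CPM in A03 and A07. Without A01 the number called lower was 9, and the other 3 pure libraries left out in turn gave 10 to 15. Alpi, the brush border alkaline phosphatase, measured 450.3 and 376 CPM in A01 and A05 and 10.5 and 2.99 CPM in A03 and A07 (70.7-fold lower with a 95% counting interval from 24.1 to 343, adjusted p = 2.70e-06). Fabp1, a fatty acid binding protein, measured 241 and 48.9 CPM in WT and had 0 reads in cancer (at least 21.3-fold lower, adjusted p = 0.00415), with an adjusted p of 0.0595 by DESeq2 on 8 libraries. Its relative Fabp2, chosen after its values were seen, measured 125 and 116 CPM in WT and had 0 reads in cancer (at least 20.9-fold lower, adjusted p = 6.23e-04). Apoa1, the main protein of high-density lipoprotein, measured 328 and 79.8 CPM in WT and 0 in cancer (at least 30.4-fold lower, adjusted p = 2.17e-04). Prap1, a proline-rich acidic protein of the absorptive epithelium, measured 1364 and 549 CPM in A01 and A05 and 10.5 and 2.99 CPM in A03 and A07 (150.2-fold lower with a 95% counting interval from 51.4 to 729, adjusted p = 2.32e-07). For each of these genes the lowest WT library was above the highest cancer library, beside 52.6% of all tested genes without overlap in either direction.

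Lgals2, a galectin of the gut epithelium that was chosen after its values were seen, was the called gene with the highest WT level, 3799 and 4127 CPM in A01 and A05 and 31.5 and 8.98 CPM in A03 and A07 (log2 fold change -7.76 ± 0.62, adjusted p = 2.35e-08). The related Lgals4, on the epithelial identity list, measured 2757 and 2287 CPM in A01 and A05 and 168 and 206 CPM in A03 and A07 (log2 fold change -3.74 ± 0.49, adjusted p = 1.41e-05), and it was the 1 member of that list called. Its call was not made on barcode counts.

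Brush border genes, which build and cap the microvilli, had 5 lower and 1 higher call among 22 tested of 27 listed. Of all tested genes 4.84% were called lower and 5.11% higher. The motor myosin Myo1a measured 97 and 134 CPM in WT and 0 in cancer (at least 21-fold lower, adjusted p = 2.89e-04), and the tip-link myosin Myo7b 102 and 114 CPM in WT and 0 in cancer (at least 19.1-fold lower, adjusted p = 2.79e-04). Ezr, the linker ezrin that ties membranes to actin throughout the epithelium, went the other way, with 186 and 195 CPM in A01 and A05 and 572 and 775 CPM in A03 and A07 (log2 fold change 1.82 ± 0.44, adjusted p = 0.00819). That call was lost without A01 (adjusted p = 0.103), A05 (0.0585) or A07 (0.0877), and on barcode counts. Ush1c, the scaffold harmonin, measured 48.5 and 47.8 CPM in WT and 0 in cancer (at least 8.4-fold lower, adjusted p = 0.00428), and its adjusted p was 0.0571 without A07. The number of lower calls was 3 without A07.

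Factors of intestinal identity were lower for 4 of 15 tested of 26 listed, beside 4.84% of all tested genes called lower. Cdx1, a homeodomain factor of the intestine, measured 276 and 268 CPM in WT and had 0 reads in both cancer libraries (at least 47.4-fold lower, adjusted p = 3.79e-05). The vitamin D receptor Vdr measured 168 and 356 CPM in WT and 0 in cancer (at least 49.8-fold lower, adjusted p = 1.66e-04). Hnf4a, a nuclear receptor of enterocytes, measured 321 and 332 CPM in A01 and A05 and 47.2 and 35.9 CPM in A03 and A07 (log2 fold change -3.00 ± 0.60, adjusted p = 0.00146). Gata4, a factor of the proximal small intestine, measured 81.5 and 115 CPM in A01 and A05 and 0 and 18 CPM in A03 and A07 (log2 fold change -3.19 ± 0.85, adjusted p = 0.0163), a call lost without A05 (adjusted p = 0.174) or A03 (adjusted p = 0.0995). Cdx2, the master intestinal homeodomain factor, measured 62.2 and 61.8 CPM in A01 and A05 and 26.2 and 2.99 CPM in A03 and A07. It did not pass (log2 fold change -2.29 ± 0.93, adjusted p = 0.143). Its groups did not overlap, which held for 52.6% of all tested genes. Klf3, a repressor, was the 1 factor called higher, with 14.6 and 34.9 CPM in A01 and A05 and 68.2 and 272 CPM in A03 and A07 (log2 fold change 2.79 ± 0.70, adjusted p = 0.0108), and not without A01 (adjusted p = 0.103) or A07 (adjusted p = 0.422).

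Secretory lineages had lower calls in goblet and enteroendocrine lists. In the goblet list 6 of 10 tested of 20 listed were lower and 1 higher. The tested members had a median log2 fold change of -7.42, or -3.43 with genes at 0 set to their bound. Tff3, the goblet cell trefoil peptide, measured 1883 and 1798 CPM in A01 and A05 and 5.25 and 8.98 CPM in A03 and A07 (log2 fold change -7.91 ± 0.71, adjusted p = 9.30e-08). Agr2, a disulfide isomerase needed for mucin folding, measured 151 and 351 CPM in A01 and A05 and 5.25 and 0 CPM in A03 and A07 (144-fold lower with a 95% counting interval from 25.8 to 5708, adjusted p = 3.67e-05). Zg16, a lectin of the mucus, measured 178 and 67.5 CPM in WT and had 0 reads in cancer (at least 19.2-fold lower, adjusted p = 2.50e-04). Muc2, the main gel-forming mucin, had 10 and 23 reads in WT and 0 in cancer and was not tested. S100a6, a calcium-binding protein on this list, was higher, from 1653 and 868 to 8702 and 7587 CPM (log2 fold change 2.69 ± 0.42, adjusted p = 1.07e-04), a call not made on barcode counts. With it, the summed level of the goblet list was 4999 and 4292 CPM in WT and 9888 and 8449 CPM in cancer, so the sum and the calls of the list pointed in opposite directions.

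Enteroendocrine markers, the hormones and factors of the gut's endocrine cells, were lower for 8 of 9 tested of 23 listed. All 8 had 0 reads in both cancer libraries and passed the filter on low counts only through other libraries. Of the 22 listed genes in the table, 20 had 0 reads in pure cancer and 13 were not tested. The share of 8 of 9 therefore rests in part on the filter. The median log2 fold change was -9.37, or -3.70 at the bounds. The hormone cholecystokinin (Cck) measured 125 and 310.3 CPM in WT (at least 42-fold lower, adjusted p = 1.99e-05). Gip, the incretin hormone, measured 78.7 and 194 CPM (at least 26.2-fold lower, adjusted p = 4.40e-04), and the granule protein Chgb 62.2 and 89.9 CPM (at least 13.9-fold lower, adjusted p = 8.43e-04). Chga, the related granule protein, measured 32 and 35.4 CPM (at least 5.97-fold lower, adjusted p = 0.0177); leaving out A01, A05 or A07 gave 0.123, 0.216 and 0.149. Neurog3, the factor that starts endocrine fate, measured 58.6 and 84.3 CPM (at least 13-fold lower, adjusted p = 0.00315), and 0.0986 was its adjusted p without A05. Without A05, 3 members of the list were called, and at a minimum count of 50 the number was 1.

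Paneth markers split. The antimicrobial lysozyme Lyz1 measured 538 and 1375 CPM in A01 and A05 and 15.8 and 2.99 CPM in A03 and A07 (log2 fold change -6.89 ± 0.78, adjusted p = 2.20e-06), with 17.7% of its 3' windows shared, with Lyz2. The microbicidal ribonuclease Ang4 measured 308 and 645 CPM in A01 and A05 and 0 and 2.99 CPM in A03 and A07 (271-fold lower with a 95% counting interval from 48.5 to 10710, adjusted p = 3.81e-06), and the lectin Itln1 1168 and 2073 CPM in A01 and A05 and 26.2 and 5.99 CPM in A03 and A07 (log2 fold change -6.83 ± 0.66, adjusted p = 2.32e-07). Mmp7, the protease that activates Paneth cell defensins, was higher instead, from 128 and 77.6 to 478 and 829 CPM (log2 fold change 2.68 ± 0.49, adjusted p = 5.95e-04), as was the stress-induced factor Nupr1, from 11.9 and 7.87 to 68.2 and 248 CPM (log2 fold change 4.05 ± 0.73, adjusted p = 5.02e-04). These 5 were the calls among 6 tested of 20 listed.

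Tuft markers had 3 tested members of 19 listed, of which Avil and Ptgs1 were higher. Ptgs1, cyclooxygenase-1, measured 0.915 and 1.69 CPM in A01 and A05 and 15.8 and 111 CPM in A03 and A07 (log2 fold change 5.50 ± 1.02, adjusted p = 7.91e-04), and its adjusted p was 0.224 without A07. Avil, an actin-binding protein, measured 2.75 and 6.18 CPM in A01 and A05 and 42 and 114 CPM in A03 and A07 (log2 fold change 4.07 ± 0.82, adjusted p = 0.00156), with 0.0635 without A07. Of the 16 listed genes in the table, 12 had 0 reads in the pure cancer libraries, and without A07 no tuft marker was called.

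Stem cell markers did not move as a block. Of 19 listed, 14 were tested, 4 were lower and 1 higher. Smoc2, a matricellular protein of crypt stem cells, measured 164 and 215 CPM in WT and 0 in cancer (at least 34.2-fold lower, adjusted p = 4.61e-05). Ascl2, the stem cell factor downstream of Wnt, measured 146 and 132 CPM in A01 and A05 and 36.7 and 32.9 CPM in A03 and A07 (log2 fold change -2.00 ± 0.63, adjusted p = 0.0437), the weakest of these calls: the adjusted p rose above 0.05 in 10 of 20 alternatives, among them 0.273 without A05, 0.26 without A01, 0.223 without A07 and 0.117 without A03. Igfbp4, which binds insulin-like growth factors, rose from 131 and 128 to 735 and 919 CPM (log2 fold change 2.68 ± 0.47, adjusted p = 3.79e-04). Lgr5, the R-spondin receptor of the crypt base, measured 26.5 and 67.5 CPM in A01 and A05 and 0 and 32.9 CPM in A03 and A07, and the groups overlapped (log2 fold change -1.32 ± 0.95, adjusted p = 0.481). Olfm4 had 7 and 18 reads in WT and 0 in cancer and was not tested. The number of lower calls was 2 without A01, 1 without A05 and 2 without A07.

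Genes of the fetal-like and repair state, in which adult epithelium expresses fetal and wound-associated genes, were higher for 16 of 23 tested of 25 listed, and none was lower, beside 5.11% of all tested genes called higher. The members were chosen with earlier results of these data known. Their median log2 fold change was 3.50, and their summed level was 2536 and 1866 CPM in WT and 13410 and 20920 CPM in cancer. The calls numbered 13 to 18 with each pure library left out in turn. Ly6a, the surface protein Sca-1, measured 114 and 46.6 CPM in A01 and A05 and 4167 and 7429 CPM in A03 and A07 (log2 fold change 6.18 ± 0.67, adjusted p = 1.00e-06). Its near relative Ly6c1 measured 0.915 and 0.562 CPM in A01 and A05 and 68.2 and 206 CPM in A03 and A07 (224-fold higher with a 95% counting interval from 60.2 to 1884, adjusted p = 1.28e-05), and reads that map equally well to such paralogs were discarded. Wfdc2, a secreted protease inhibitor, rose from 25.6 and 36.5 to 2152 and 3370 CPM (log2 fold change 6.46 ± 0.52, adjusted p = 2.35e-08). Tubb6, a beta-tubulin chosen like Anxa1 after its values were seen, rose from 3.66 and 1.12 to 325 and 98.8 CPM (log2 fold change 6.51 ± 0.86, adjusted p = 1.41e-05), and Anxa1, an annexin of inflamed epithelium, from 18.3 and 49.5 to 672 and 494 CPM (log2 fold change 4.07 ± 0.56, adjusted p = 2.21e-05). Each of these genes had non-overlapping groups, beside 52.6% of all tested genes.

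Keratins and gastric-type genes were higher in part. Krt7, a keratin of simple ductal epithelia, rose from 571 and 419.9 to 3191 and 3592 CPM (log2 fold change 2.78 ± 0.41, adjusted p = 5.30e-05), a call not made on barcode counts, and Krt4, a keratin of stratified mucosa, from 80.5 and 33.7 to 1653 and 2122 CPM (log2 fold change 5.06 ± 0.52, adjusted p = 5.20e-07). They were the 2 calls among 7 tested keratins of 13 listed. Tff1, the trefoil peptide of the stomach surface, rose from 84.2 and 64.6 to 1564 and 1245 CPM (log2 fold change 4.24 ± 0.50, adjusted p = 3.81e-06), and Tff2, that of gastric neck cells, from 1.83 and 2.25 to 94.5 and 311 CPM (log2 fold change 6.57 ± 0.84, adjusted p = 1.10e-05). Anxa10, an annexin of gastric epithelium, fell from 139 and 67.5 to 5.25 and 2.99 CPM (24.9-fold lower with a 95% counting interval from 6.81 to 206, adjusted p = 2.89e-04). With Aqp5, described above, and the protease cathepsin E (Ctse), the gastric list had 4 higher and 1 lower call among 7 tested of 20 listed. Ctse measured 7.32 and 3.37 CPM in A01 and A05 and 15.8 and 108 CPM in A03 and A07 (log2 fold change 3.65 ± 0.81, adjusted p = 0.0037), and its adjusted p was 0.593 without A07 and 0.0535 without A05.

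**Figure D2:**
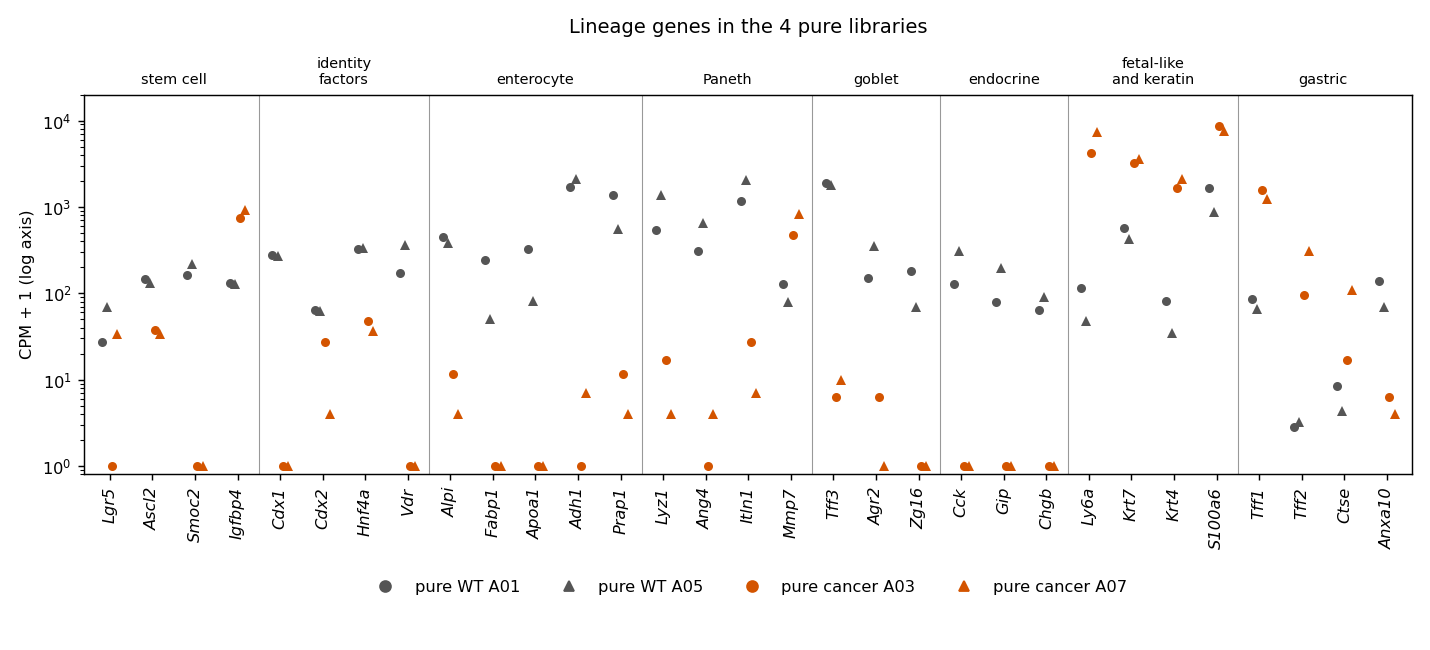
CPM + 1 (log axis) of 31 lineage genes in the 4 pure libraries; grey symbols are pure WT (circle A01, triangle A05) and orange symbols pure cancer (circle A03, triangle A07), and points at 1 had 0 reads. Orange lies below grey for the enterocyte, goblet and endocrine genes shown and above it for the fetal-like and keratin genes, while Lgr5 overlaps.

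Signaling genes were read by pathway. The Wnt list of feedback and target genes had 4 higher and 1 lower call among 17 tested of 30 listed. Nkd1, a feedback inhibitor inside the cell, rose from 10.1 and 8.43 to 283 and 114 CPM (log2 fold change 4.40 ± 0.70, adjusted p = 1.43e-04). Notum, a secreted enzyme that inactivates Wnt ligands, rose from 0 and 1.12 to 26.2 and 98.8 CPM (104-fold higher with a 95% counting interval from 26.9 to 889.9, adjusted p = 2.58e-04), and Ifitm1, a membrane protein and Wnt target, from 15.6 and 7.87 to 782 and 682 CPM (log2 fold change 5.99 ± 0.56, adjusted p = 1.61e-07). The ligand Wnt6 measured 0 and 1.12 CPM in A01 and A05 and 21 and 56.9 CPM in A03 and A07 (63-fold higher with a 95% counting interval from 15.6 to 551, adjusted p = 0.0022), with an adjusted p of 0.0518 without A07. Axin2, the scaffold most used as a Wnt readout, measured 76 and 155 CPM in A01 and A05 and 52.5 and 68.8 CPM in A03 and A07. It was not called (log2 fold change -0.91 ± 0.64, adjusted p = 0.468). In the mixed cultures, which are other libraries in the same fit, its log2 fold change was 3.57 (adjusted p = 0.0058). The test of the difference between both comparisons did not call Axin2.

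RAS-ERK feedback and target genes were higher for 5 of 19 tested of 34 listed, and none was lower. Ier3, an immediate early survival gene, rose from 31.1 and 3.93 to 273 and 428 CPM (log2 fold change 4.40 ± 0.72, adjusted p = 1.91e-04). Dusp4, a phosphatase that switches off ERK, rose from 8.24 and 2.25 to 52.5 and 80.8 CPM (log2 fold change 3.75 ± 0.87, adjusted p = 0.00549), with 0.135 without A05. Errfi1, a feedback inhibitor of the EGF receptor, rose from 9.15 and 25.3 to 116 and 138 CPM (log2 fold change 2.84 ± 0.72, adjusted p = 0.0111), with 0.237 without A01. Emp1, a membrane protein whose promoter is shown above and which was chosen after its values were seen, rose from 41.2 and 38.2 to 105 and 281 CPM (log2 fold change 2.31 ± 0.62, adjusted p = 0.0168), with 0.0543 without A05 and 0.308 without A07. The number of calls was 3 without A01, 2 without A05 and 8 without A03.

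TGF-beta and BMP pathway genes were higher for 5 of 16 tested of 35 listed, a count that fell to 2 without A01, 1 without A05, 3 without A03 and 1 without A07. The BMP target Id3 measured 11.9 and 3.37 CPM in A01 and A05 and 68.2 and 41.9 CPM in A03 and A07 (log2 fold change 2.87 ± 0.89, adjusted p = 0.0415); 9 of 18 alternatives lost it, and its adjusted p was 0.543 without A05, 0.15 without A01, 0.138 without A03 and 0.052 without A07. The ligand Tgfb3 measured 0.915 and 0 CPM in A01 and A05 and 21 and 41.9 CPM in A03 and A07 (98.5-fold higher with a 95% counting interval from 15.6 to 4105, adjusted p = 0.00402), with 0.148 without A05 and 0.0615 without A07. Ltbp3, which binds latent TGF-beta, measured 0.915 and 0.562 CPM in A01 and A05 and 10.5 and 50.9 CPM in A03 and A07 (52-fold higher with a 95% counting interval from 12.6 to 460.4, adjusted p = 0.0036), with 0.0512, 0.103 and 0.343 without A01, A05 and A07. Both had 2 or fewer reads over the WT libraries.

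Hippo pathway genes and targets of its effector YAP had 3 higher calls among 13 tested of 29 listed, beside 5.11% of all tested genes. Ctgf, a secreted matricellular YAP target, rose from 4.58 and 1.69 to 47.2 and 192 CPM (log2 fold change 5.34 ± 0.89, adjusted p = 2.32e-04). Ankrd1, a nuclear ankyrin-repeat YAP target, measured 0.915 and 1.12 CPM in A01 and A05 and 10.5 and 119.7 CPM in A03 and A07 (76.6-fold higher with a 95% counting interval from 24.5 to 386, adjusted p = 9.44e-04), and the adaptor Ajuba 19.2 and 20.8 CPM in A01 and A05 and 31.5 and 257 CPM in A03 and A07 (log2 fold change 2.89 ± 0.79, adjusted p = 0.0178). The promoters of Ankrd1 and Ajuba each hold 2 TEAD-type matches, a motif in 15.1% of windows of higher and 16.3% of lower genes. Both calls leaned on A07 and were lost without it, where the log2 fold change was 3.13 for Ankrd1 and 0.55 for Ajuba.

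Among 38 listed p53 targets 17 were tested, and 1 was lower, which is near the 4.84% of all tested genes called lower. It was Ephx1, an epoxide hydrolase, from 172 and 166 to 26.2 and 5.99 CPM (log2 fold change -3.56 ± 0.70, adjusted p = 0.00123). The median log2 fold change of the p53 list was -0.05, equal at this rounding to that of all tested genes. Of 10 tested Notch pathway genes of 26 listed, Atoh1, the factor that starts secretory fate, was lower, with 27.5 and 30.9 CPM in WT and 0 in cancer (at least 5.18-fold lower, adjusted p = 0.0488); its adjusted p was 0.105 without A03 and 0.24 without A07, and 6 of 12 alternatives lost it.

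Interferon and MHC class I genes had 4 higher and 1 lower call among 18 tested of 36 listed. Alternatives that left out no single library gave 0 to 5 higher calls. Rtp4, an interferon-induced chaperone, had 0 reads in WT and 73.5 and 8.98 CPM in cancer (at least 31-fold higher, adjusted p = 0.00264), and the interferon-induced Xaf1 had 0 reads in WT and 63 and 8.98 CPM in cancer (at least 27.4-fold higher, adjusted p = 0.00316). After thinning all libraries to the depth of A03 neither was called (adjusted p = 0.0589 and 0.161), nor was Bst2 (adjusted p = 0.121). The antiviral tether Bst2 measured 1.83 and 0.562 CPM in A01 and A05 and 57.7 and 20.9 CPM in A03 and A07 (32.8-fold higher with a 95% counting interval from 9.59 to 174, adjusted p = 0.0111), with 0.156 without A05. The interferon regulatory factor Irf7 measured 1.83 and 0.562 CPM in A01 and A05 and 10.5 and 41.9 CPM in A03 and A07 (29.2-fold higher with a 95% counting interval from 8.36 to 156, adjusted p = 0.0163), with 0.0558, 0.216 and 0.401 without A01, A05 and A07. The higher calls were 2 without A05. Lgals3bp, a secreted glycoprotein, fell from 465 and 477 to 47.2 and 141 CPM (log2 fold change -2.27 ± 0.59, adjusted p = 0.0131), with 0.0676 without A03.

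The chemokine and NF-kB feedback list had 3 higher and 1 lower call among 11 tested of 30 listed. Of all tested genes 5.11% were called higher and 4.84% lower. Lcn2, the iron-scavenging lipocalin, had 0 reads in WT and 21 and 56.9 CPM in cancer (at least 42-fold higher, adjusted p = 0.00169). Tnfaip2, a TNF-induced protein, rose from 1.83 and 2.25 to 42 and 83.8 CPM (log2 fold change 4.89 ± 0.97, adjusted p = 0.00138). Cxcl16, a transmembrane chemokine, measured 24.7 and 12.4 CPM in A01 and A05 and 42 and 168 CPM in A03 and A07 (log2 fold change 2.56 ± 0.76, adjusted p = 0.0307), with 0.227 without A05 and 0.597 without A07. Ccl25, the small intestinal chemokine that draws T cells, fell from 94.3 and 146 CPM in WT to 0 reads in cancer (at least 22-fold lower, adjusted p = 3.79e-04). The higher calls were 3, 3, 7 and 2 without A01, A05, A03 and A07, and 0 at a minimum count of 50.

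**Figure D3:**
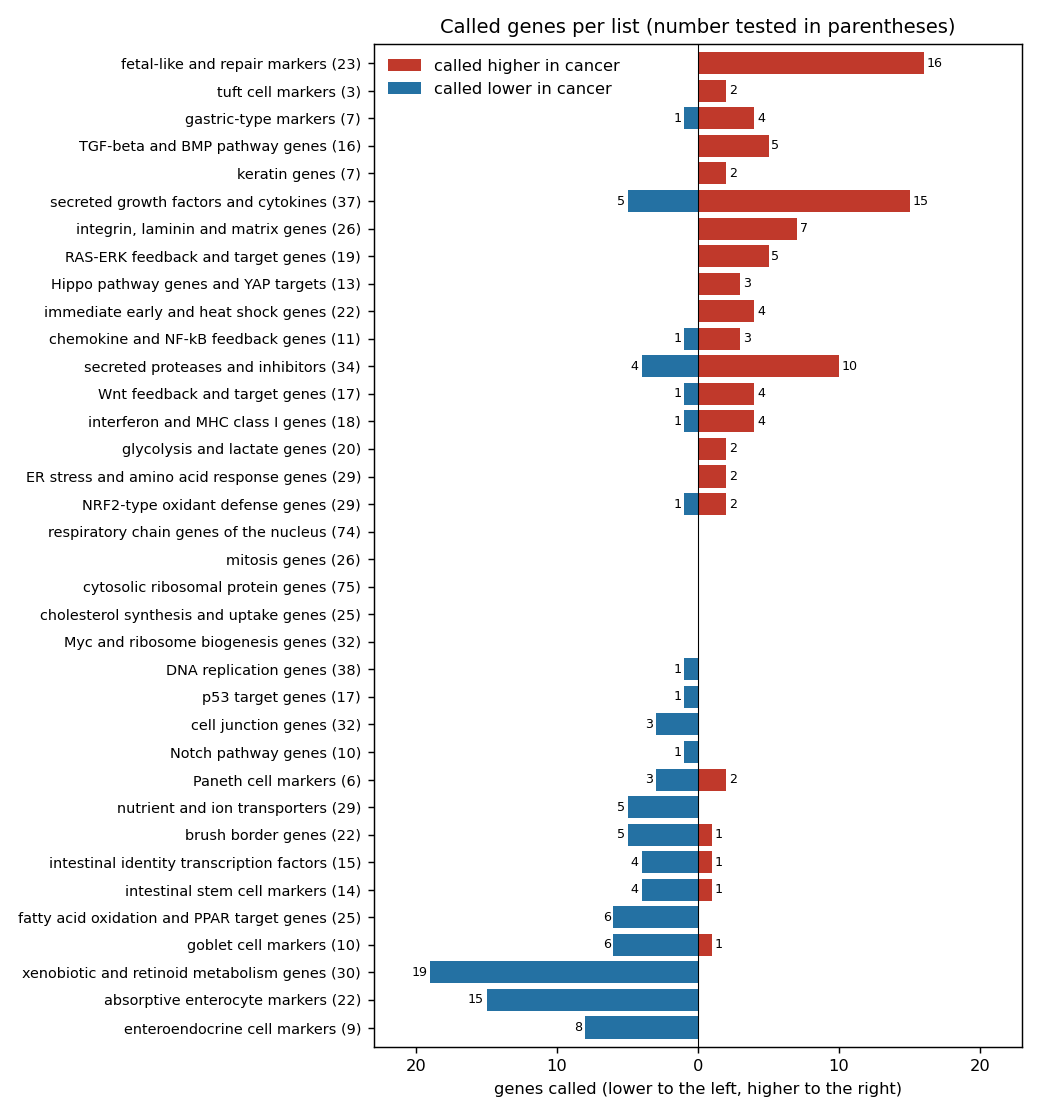
Number of genes called higher (red, to the right) and lower (blue, to the left) in cancer for each gene list, with the number of tested members in parentheses, ordered by the difference of both as a share of tested members. Fetal-like markers have 16 higher calls of 23, while enteroendocrine markers have 8 lower of 9, enterocyte markers 15 of 22 and xenobiotic genes 19 of 30.

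Xenobiotic and retinoid metabolism genes were lower for 19 of 30 tested of 64 listed, and none was higher; the median log2 fold change was -3.36, or -2.62 with genes at 0 set to their bound. The calls numbered 14 without A01, 11 without A05, 17 without A03 and 13 without A07. Adh1, the alcohol dehydrogenase that also oxidizes retinol, measured 1701 and 2108 CPM in A01 and A05 and 0 and 5.99 CPM in A03 and A07 (512-fold lower with a 95% counting interval from 142 to 4232, adjusted p = 3.63e-08). Aldh1b1, a mitochondrial aldehyde dehydrogenase, measured 486 and 302 CPM in A01 and A05 and 5.25 and 0 CPM in A03 and A07 (195-fold lower with a 95% counting interval from 35 to 7721, adjusted p = 5.30e-06), and the carboxylesterase Ces2e 512 and 672 CPM in A01 and A05 and 10.5 and 0 CPM in A03 and A07 (160.3-fold lower with a 95% counting interval from 44.3 to 1325, adjusted p = 3.67e-06). Cyp2d26, a cytochrome P450, measured 138 and 184 CPM in WT and 0 in cancer (at least 29.2-fold lower, adjusted p = 2.11e-04). Of their 3' windows, 7.29% in Ces2e and 8.57% in Cyp2d26 also occur in relatives.

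Fatty acid oxidation genes and PPAR targets were lower for 6 of 25 tested of 39 listed, and for 3 without A01, 3 without A05 and 2 without A07. Ucp2, a mitochondrial carrier, fell from 744 and 982 to 47.2 and 56.9 CPM (log2 fold change -4.03 ± 0.52, adjusted p = 1.10e-05). Acot1, an acyl-CoA thioesterase with 28.1% of windows shared with relatives, measured 119.9 and 183 CPM in A01 and A05 and 0 and 5.99 CPM in A03 and A07 (41.7-fold lower with a 95% counting interval from 11.5 to 346, adjusted p = 0.00179). Acaa2, a thiolase of beta-oxidation, measured 180.3 and 215 CPM in A01 and A05 and 52.5 and 23.9 CPM in A03 and A07 (log2 fold change -2.44 ± 0.63, adjusted p = 0.0129), and 0.151 and 0.158 were its adjusted p without A05 and A07.

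Glycolysis genes had 2 higher calls and none lower among 20 tested of 24 listed, beside 5.11% of all tested genes called higher. Above 0 were 19 of the 20 fold changes, beside 2521 of 5264 over all tested genes. Pgk1, phosphoglycerate kinase, rose from 1851 and 1489 to 4954 and 4382 CPM (log2 fold change 1.48 ± 0.38, adjusted p = 0.0112), with 0.0666 and 0.118 without A01 and A05; 40.0% of its 3' windows occur in other gene models. The enolase Eno2 measured 0 and 1.12 CPM in A01 and A05 and 63 and 26.9 CPM in A03 and A07 (57.5-fold higher with a 95% counting interval from 14.1 to 506, adjusted p = 0.00362), with 0.123 without A01. The list had 1 call without A01, 1 without A05 and 3 without A03. The list's median log2 fold change was 0.83.

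None of 74 tested nuclear genes of the respiratory chain and none of 25 tested cholesterol genes was called by edgeR, with median log2 fold changes of -0.41 and -0.46. At an unadjusted p under 0.05 there were 8 and 7 genes, and DESeq2 called 0 of each on 8 libraries and 1 of each on the 4 pure libraries. Of the respiratory genes, 62 of 74 fold changes were below 0, beside 2743 of 5264 over all tested genes. The summed level of the list was 51810 and 47820 CPM in A01 and A05, 48610 CPM in A03 and 30010 CPM in A07. A03 lay within the range of WT and A07 below it. The pair with the highest mean over the 4 libraries, Atp5b and Atp5h of the ATP synthase, did not pass. Atp5b measured 2287 and 2225 CPM in A01 and A05 and 1905 and 1784 CPM in A03 and A07 (log2 fold change -0.29 ± 0.38, adjusted p = 0.74), and Atp5h 2493 and 2507 CPM in A01 and A05 and 1937 and 1200 CPM in A03 and A07 (log2 fold change -0.67 ± 0.40, adjusted p = 0.363). Among cholesterol genes Fdps, farnesyl diphosphate synthase, measured 610.4 and 324 CPM in A01 and A05 and 357 and 338 CPM in A03 and A07, and the desaturase Scd2 397 and 181 CPM in A01 and A05 and 304 and 353 CPM in A03 and A07. NRF2-type oxidant defense genes had 2 higher and 1 lower call among 29 tested of 30 listed. That is near the shares of all tested genes, 5.11% called higher and 4.84% called lower. Me1, the malic enzyme that makes NADPH, rose from 22 and 13.5 to 189 and 224 CPM (log2 fold change 3.56 ± 0.62, adjusted p = 3.22e-04). Taldo1, a transaldolase, fell from 732 and 707 to 168 and 189 CPM (log2 fold change -2.01 ± 0.47, adjusted p = 0.00526), though not on barcode counts. The ferritin light chain Ftl1 measured 2275 and 2014 CPM in A01 and A05 and 4272 and 5444 CPM in A03 and A07 (log2 fold change 1.18 ± 0.38, adjusted p = 0.0476), a call that 9 of 20 alternatives lost, with 0.228, 0.236, 0.0565 and 0.27 without A01, A05, A03 and A07; 74.0% of its windows are shared.

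Among plasma membrane transporters 5 of 29 tested of 68 listed were lower, beside 4.84% of all tested genes called lower. Slc5a1, the sodium-glucose cotransporter, measured 70.5 and 56.8 CPM in WT and 0 in cancer (at least 10.8-fold lower, adjusted p = 0.00327), and Atp1b1, the sodium pump's beta subunit, fell from 285 and 378 to 31.5 and 50.9 CPM (log2 fold change -2.96 ± 0.55, adjusted p = 6.70e-04). Slc12a8 measured 124 and 232 CPM in A01 and A05 and 26.2 and 2.99 CPM in A03 and A07 (log2 fold change -3.83 ± 1.01, adjusted p = 0.0153), with 0.0755 and 0.0545 without A05 and A07. The zinc importer Slc39a5 measured 38.4 and 37.1 CPM in WT and 0 in cancer (at least 6.58-fold lower, adjusted p = 0.021), with 0.213, 0.273 and 0.139 without A01, A05 and A07. The count was 3 without A01, 2 without A05 and 3 without A07.

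Growth genes gave few calls. None of 75 tested cytosolic ribosomal protein genes, 32 Myc and ribosome biogenesis genes or 26 mitosis genes was called by edgeR, and 1 of 38 DNA replication genes was. Each of the first 3 lists had 1 gene at an unadjusted p under 0.05; DESeq2 called none on 8 libraries and 1 ribosomal protein gene on the 4 pure libraries. Their median log2 fold changes were -0.01, -0.50, 0.34 and -0.47. Ribosomal protein genes summed to 313800 and 359300 CPM in WT and 361400 and 320000 CPM in cancer. Fen1, the flap endonuclease of lagging-strand synthesis, fell from 128 and 119.7 to 15.8 and 15 CPM (log2 fold change -3.01 ± 0.87, adjusted p = 0.0274), with 0.0728 and 0.0687 without A05 and A07; the list had 2 calls without A03. Mki67, the proliferation antigen Ki-67, had 6, 11, 5 and 1 reads (log2 fold change 1.13 ± 1.41, adjusted p = 0.731), and the mitotic kinase Cdk1 measured 441 and 397 CPM in A01 and A05 and 698 and 314 CPM in A03 and A07 (log2 fold change 0.26 ± 0.48, adjusted p = 0.835). The cancer libraries differed from each other here, with replication genes at 3611 CPM in A03 and 1449 CPM in A07.

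Integrin, laminin and matrix genes were higher for 7 of 26 tested of 48 listed, and none was lower; the median log2 fold change was 1.56. Fn1, fibronectin, rose from 0.915 and 1.12 to 42 and 165 CPM (115-fold higher with a 95% counting interval from 37.6 to 572, adjusted p = 1.25e-04). Tns4, a tensin that binds integrin tails, measured 11.9 and 18 CPM in A01 and A05 and 63 and 302 CPM in A03 and A07 (log2 fold change 3.62 ± 0.81, adjusted p = 0.00381), with 0.204 without A07. Col4a2, a basement membrane collagen, measured 1.83 and 0 CPM in A01 and A05 and 15.8 and 65.8 CPM in A03 and A07 (68.4-fold higher with a 95% counting interval from 17.1 to 596, adjusted p = 0.00467), with 0.137 and 0.228 without A05 and A07, and Col18a1, another, measured 0 and 0.562 CPM in A01 and A05 and 10.5 and 74.8 CPM in A03 and A07 (148-fold higher with a 95% counting interval from 24.4 to 6051, adjusted p = 0.00104), with 0.249 without A07. A07 was above A03 in each of these genes, and without A07 the calls numbered 1, against 10 without A03.

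Of 32 tested junction genes of 48 listed, 3 were lower and none higher, beside 4.84% of all tested genes called lower, and the lower count was 1 without A05. Cldn15, a pore-forming claudin of the small intestine, measured 133 and 109 CPM in WT and 0 in cancer (at least 20.6-fold lower, adjusted p = 1.76e-04). Cdh17, the intestinal liver-intestine cadherin, fell from 98.8 and 102 to 10.5 and 15 CPM (log2 fold change -2.92 ± 0.86, adjusted p = 0.0304), with 0.1, 0.0524 and 0.0609 without A05, A03 and A07. Pvrl3, the nectin-3 gene, measured 44.8 and 49.5 CPM in WT and 0 in cancer (at least 8.34-fold lower, adjusted p = 0.0111), with 0.0817, 0.17 and 0.0825 without A01, A05 and A07. Cdh1, E-cadherin, chosen after its values were seen, measured 254 and 300.1 CPM in A01 and A05 and 63 and 389 CPM in A03 and A07, and its groups overlapped (log2 fold change -0.25 ± 0.59, adjusted p = 0.881).

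Secreted factors moved in both directions. Of 84 listed growth factors, cytokines and their modulators 37 were tested, 15 were higher and 5 lower, and the higher calls were 10 without A01, 8 without A05, 15 without A03 and 9 without A07. Spp1, osteopontin, rose from 3.66 and 0 to 362 and 209.5 CPM (log2 fold change 7.48 ± 0.85, adjusted p = 2.20e-06). Igfbp7 had 0 reads in WT and 31.5 and 186 CPM in cancer (at least 124-fold higher, adjusted p = 3.79e-05). The ligand Wnt7b rose from 2.75 and 1.69 to 47.2 and 105 CPM (log2 fold change 5.12 ± 0.85, adjusted p = 2.17e-04), and Vegfa, an endothelial growth factor chosen after its values were seen, from 13.7 and 22.5 to 131 and 138 CPM (log2 fold change 2.87 ± 0.68, adjusted p = 0.00645), with 0.0913 without A01. The intestinal peptide guanylin (Guca2a) measured 273 and 262 CPM in WT and 0 in cancer (at least 46.5-fold lower, adjusted p = 1.04e-05), and uroguanylin (Guca2b) 201 and 115 CPM in A01 and A05 and 0 and 2.99 CPM in A03 and A07 (77.6-fold lower with a 95% counting interval from 13.9 to 3074, adjusted p = 1.94e-04).

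Secreted proteases, their inhibitors and plasminogen activation genes had 10 higher and 4 lower calls among 34 tested of 54 listed. Timp2, an inhibitor of metalloproteinases, rose from 4.58 and 8.43 to 57.7 and 200.5 CPM (log2 fold change 4.28 ± 0.76, adjusted p = 3.97e-04). Serpinb6b, a protease inhibitor, had 0 reads in WT and 84 and 80.8 CPM in cancer (at least 78.5-fold higher, adjusted p = 4.21e-05), whereas its relative Serpinb1a had 92.4 and 186 CPM in WT and 0 in cancer (at least 26.3-fold lower, adjusted p = 1.87e-04). Plat, the tissue plasminogen activator, measured 0.915 and 0.562 CPM in A01 and A05 and 36.7 and 20.9 CPM in A03 and A07 (38.3-fold higher with a 95% counting interval from 8.8 to 347, adjusted p = 0.00924), with 0.117 and 0.193 without A01 and A05. Prss32, a serine protease, fell from 181 and 161 to 0 and 18 CPM (log2 fold change -3.98 ± 0.83, adjusted p = 0.00236). Tmprss2, a membrane serine protease, measured 242 and 183 CPM in A01 and A05 and 42 and 80.8 CPM in A03 and A07 (log2 fold change -1.74 ± 0.53, adjusted p = 0.0349), with 0.231, 0.131 and 0.213 without A01, A05 and A03. The lower calls were 2 without A01 and 2 without A05.

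**Figure D4:**
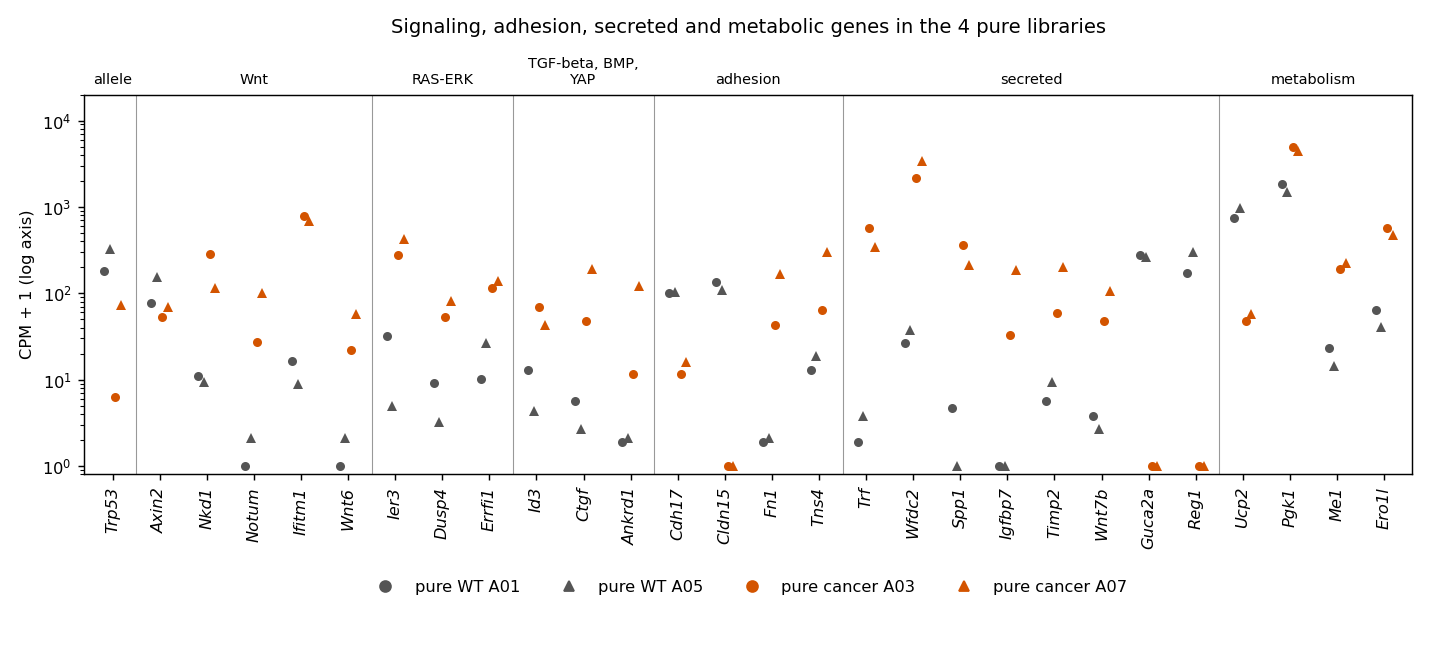
CPM + 1 (log axis) of 28 signaling, adhesion, secreted and metabolic genes in the 4 pure libraries, with the symbols of the lineage plot (grey WT, orange cancer, circle and triangle for the first and second well of each) and 0 reads drawn at 1. Orange lies above grey for the RAS-ERK genes shown and for Nkd1, Notum and Ifitm1 but below it for Trp53, Cdh17, Cldn15, Guca2a, Reg1 and Ucp2.

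Of 29 tested ER stress and amino acid response genes of 35 listed, Ero1l and Trib3 were higher and none was lower, beside 5.11% of all tested genes called higher. Ero1l, the oxidase of disulfide formation, rose from 63.1 and 39.9 to 572 and 476 CPM (log2 fold change 3.35 ± 0.50, adjusted p = 6.78e-05). Trib3, a pseudokinase of the amino acid response, measured 15.6 and 1.12 CPM in A01 and A05 and 105 and 38.9 CPM in A03 and A07 (log2 fold change 3.15 ± 0.98, adjusted p = 0.0415); 8 of 19 alternatives lost it, with 0.425 without A05 and 0.153 without A03. Immediate early and heat shock genes were higher for 4 of 22 tested of 28 listed, and the count was 2 without A01, 2 without A05 and 1 without A07. Junb, an AP-1 subunit, measured 203 and 115 CPM in A01 and A05 and 467 and 1030 CPM in A03 and A07 (log2 fold change 2.24 ± 0.55, adjusted p = 0.0084), with 0.0548 and 0.0987 without A05 and A07. Hspa1b, an inducible HSP70, measured 11 and 8.99 CPM in A01 and A05 and 52.5 and 114 CPM in A03 and A07 (log2 fold change 3.08 ± 0.77, adjusted p = 0.01), with 0.0812, 0.129 and 0.181 without A01, A05 and A07.

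The same genotypes were also sorted from mixed cultures, in 4 libraries whose levels are not part of the pure contrast. All 8 libraries were fitted together, so both comparisons share the filter on low counts and the estimate of spread. In the mixed comparison 338 genes were called (6.42% of those tested), 106 higher (2.01%) and 232 lower (4.41%) in cancer. Of the 524 pure calls 239 were also called in the mixed comparison in the same direction, which is 45.6% of the pure and 70.7% of the mixed calls. By direction, 77 of the higher pure calls (28.6%) and 162 of the lower (63.5%) were called there too. Of all pure calls, 490 had the same sign in the mixed comparison and 34 the opposite sign. The mixed WT library A02 had 73109 reads, 26.1% of tested genes at 0 and 10.6% mitochondrial reads, and 3 pooled reads correspond to 5.80 CPM in mixed WT against 1.04 CPM in pure WT cells. Without A06, which leaves A02 as the mixed WT library, 325 of the 338 mixed calls were tested, 152 were called and 17 changed sign. Without A04, 331 were tested and 152 called, with the same sign in all 331. The part of depth in the unequal counts by direction was not tested. The lists read alike in part: enterocyte markers had 19 lower calls, xenobiotic genes 23, enteroendocrine markers 7 and goblet markers 6, while fetal-like markers had 6 higher and 2 lower, against 16 and 0 in pure cultures.

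**Figure D5:**
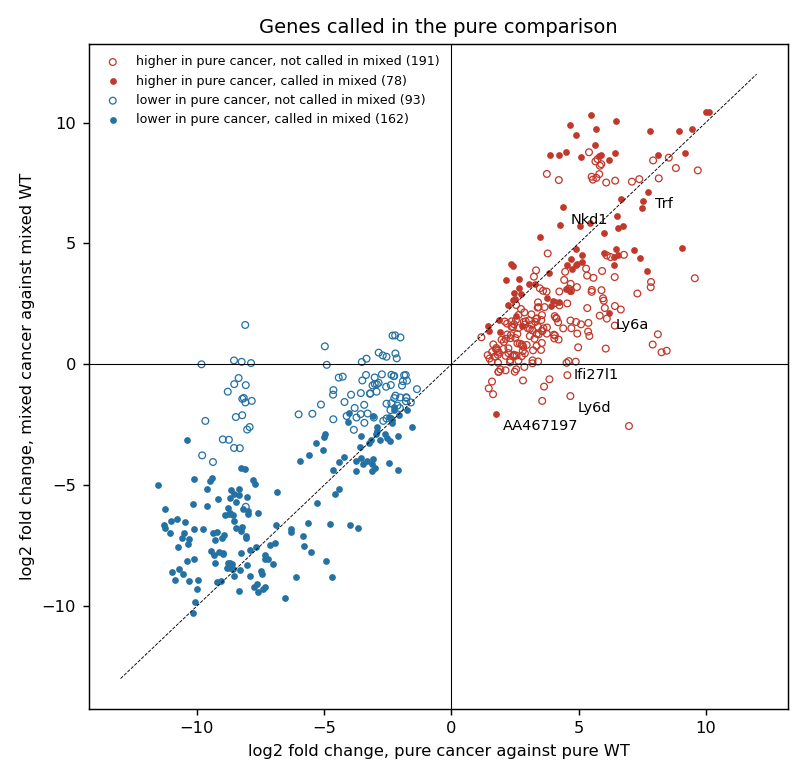
Log2 fold change of the 524 genes called in the pure comparison, in pure (x axis) and mixed (y axis) cultures, cancer against WT; filled points were also called in mixed cultures, and the dashed line marks equal values. Blue points lie mostly below 0 on both axes, and the named genes Ly6a, Ly6d, Ifi27l1 and AA467197 lie below the dashed line.

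The difference between both comparisons was tested for all 5264 genes and called for 4 (0.0760%), Ly6d, Ifi27l1, AA467197 and Ly6a. Ly6a, for which the mixed log2 fold change was 2.12 (adjusted p = 0.018) beside 6.18 in pure cultures, measured 459 and 1969 CPM in mixed WT cells and 3511 and 7340 CPM in mixed cancer cells. AA467197, described after its values were seen, was the 1 gene called in opposite directions, higher in cancer in pure cultures (log2 fold change 1.75 ± 0.49, adjusted p = 0.0226; 0.291 without A05 and 0.0946 without A07) and lower in mixed cultures (log2 fold change -2.06, adjusted p = 0.01). The number of genes with a called difference was 0 after thinning (edgeR; 234 at an unadjusted p under 0.05) and 21 by DESeq2 on 8 libraries. Without a library it was 32 (A03), 17 (A07), 13 (A01), 13 (A02), 8 (A08), 2 (A05), 1 (A04) and 1 (A06).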

How the data were processed

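Sorted cells were sequenced by CEL-Seq, which reads 3' ends. The authors aligned read 2 to the mm10 RefSeq transcriptome with BWA, discarded reads mapping equally well to several places and deposited raw read counts, barcode counts and estimated counts of transcripts per gene. Their deposited table of the mixed against the pure WT comparison, which holds normalized count means (signal), log2 fold changes, scores and p-values by DESeq2 1.22.2, was not used.

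Read counts of 13420 genes were analysed, and 2 entries that are not mouse genes were left out. Groups came from the labels. In edgeR 4.0.16 (R 4.3.3), genes were kept by filterByExpr at a minimum count of 10, scaled by TMM and fitted over all 8 libraries by quasi-likelihood, with Benjamini-Hochberg adjustment over 5264 genes and a threshold of 0.05. Standard errors (SE) were derived from each log2 fold change and its F statistic. The pipeline was tested on simulated data. Total reads per library were 210030 to 1905693 in pure cultures, so low genes are less precise in cancer. Against 0 reads, a fold is a bound from 3 pooled reads; for 1 to 3 pooled reads, a ratio with a 95% counting interval is given.

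Named genes were the 10 largest called changes per direction with a mean of at least 50 reads, up to 4 called members of each list per direction by adjusted p, the 2 most abundant tested members of lists without calls, the allele genes and standard markers. Members and lists were chosen with earlier results of these data known. Sharing of 50-base windows over the last 500 bases of GENCODE vM21 transcripts marks genes whose reads may be split. Alternatives were barcode and transcript counts, other scaling and filters, 4-library fits, DESeq2 1.42.0 and thinning. A floor of 1 on the absolute log2 fold change, a block by quartet of wells and leaving out each library were the others. Some items are not reported here.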

Additional observations from a re-analysis of the deposited data

Results flagged for a closer look

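The cancer against WT log2 fold change differed between pure and mixed cultures in 4 genes by the test of the difference itself (edgeR quasi-likelihood test over 5264 genes). For Ly6d, a surface protein of the Ly6 family, the pure value was 5.99 above the mixed value (adjusted p = 0.00224), with 7.32 and 3.37 CPM in pure WT, 142 and 126 CPM in the pure cancer libraries, 197 and 369 CPM in WT cells from mixed cultures and 89.6 and 156 CPM in cancer cells from mixed cultures. For Ifi27l1, an interferon-inducible gene, the difference was 4.47 (adjusted p = 0.0253), with 7.32 and 6.18 CPM in pure WT and 105 and 215 CPM in mixed WT. For AA467197 it was 3.81 (adjusted p = 0.0253), with 142 and 71.4 CPM in pure WT and 511 and 1063 CPM in mixed WT. For Ly6a it was 4.06 (adjusted p = 0.0386), with 114 and 46.6 CPM in pure WT and 459 and 1969 CPM in mixed WT. In all 4 genes both mixed WT libraries lay above both pure WT libraries. These levels entered the test that selected the genes, so the pattern is no separate support.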

How the results depend on the processing

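Of 148 tested genes followed singly, 132 were called, and 73 kept the call under every alternative run that gave them an adjusted p. Others lost it, many of them when 1 library was left out. Runs that filtered a gene out were not counted for it, so Lcn2 was followed in 17 alternatives and Alpi in 20. The alternative with a floor of 1 on the absolute log2 fold change could alter no call, since the smallest called value was 1.18. Single-gene values gave 2693 alternatives on the same side of the threshold, 157 weaker, 4 stronger and 17 reversed in sign, none of the 17 called. The shallow cancer libraries limit low genes. The labels give wells and no shared replicate numbers. A replicate block by quartet of wells (A01 to A04, A05 to A08), chosen after seeing the data, gave 653 pure calls (522 of the 524 kept), 459 mixed calls (186 higher) and 30 called differences between them, and 4 nuclear respiratory chain genes were called lower. Differences between the quartets correlated at 0.0443 to 0.211 over the 6 pairs of groups, which cannot decide whether the quartets are pairs. The main fit was set without a block. The pure comparison called 232 genes (123 higher, 109 lower) at a minimum count of 50, where 1543 genes were tested, and 312 (162 higher, 150 lower) after thinning, where 3392 were; the mixed comparison called 151 (50 higher, 101 lower) and 222 (151 lower). With DESeq2 on 8 libraries 60.4% of pure calls were higher, against 51.3%. Leaving out 1 library gave 261 (without A05) to 745 (without A02) pure calls, 140 to 378 higher and 121 to 367 lower, and 167 (without A04) to 506 (without A07) mixed calls, 65 to 175 higher and 102 to 341 lower. The number of genes whose difference between pure and mixed cultures was called was 23 with barcode counts, 10 with transcript counts, 10 without a filter, 21 by DESeq2 on 8 libraries, 0 by edgeR after thinning (234 at an unadjusted p under 0.05) and 1 to 32 with 1 library left out; these alternatives were chosen after seeing the data. The causes were not tested.

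Signs of log2 fold changes turned as follows. With barcode counts, Atp5b was at 1.31, Atp5h at 0.782, Fdps at 0.153, Rplp1 at 2.09 and Rpsa at 2.10. With transcript counts, Rplp1 was at 0.872 and Rpsa at 1.13. With 1 library left out, Cd68 ranged from -3.04 to 6.38, Cdk1 from -0.46 to 0.64, Fdps from -0.73 to 0.043, Mki67 from -0.99 to 2.05, Nhp2 from -1.22 to 0.049, Npm1 from -0.025 to 0.97, Rpsa from -0.20 to 0.056, Scd2 from -0.18 to 0.81 and Cdh1 from -2.23 to 0.44.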

Other observations

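Genes of chromosome 8 were higher in cancer on average, a measure chosen after seeing the data and given without a test. The median log2 fold change of its 346 tested genes was 0.39 in pure and 0.72 in mixed cultures. Of the pure values 63.6% were above 0, beside 2521 of 5264 over all tested genes. The median stood 0.44 above that of all tested genes in pure cultures and 0.60 above it in mixed cultures. Among the 81 genes at 100 CPM or more it was 0.43 in pure and 0.66 in mixed cultures. Each cancer library showed it, with medians of 0.41 in A03 and 0.25 in A07 over WT. The difference from all tested genes was 0.145 with DESeq2 on 8 libraries. Chromosome X, with 129 tested genes, had medians of 0.26 and 0.44, with 62.8% of the pure values above 0, and its medians over WT were 0.47 in A03 and 0.11 in A07. Chromosome 10 had medians of -0.37 and -0.02 in pure and mixed cultures.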
